A study of Rattus norvegicus with 19 samples.

Results

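miR-323 is a microRNA (miRNA) of the imprinted Dlk1-Dio3 domain, and its hairpin gives 2 mature miRNAs, rno-miR-323-3p and rno-miR-323-5p. These were chosen by name as 2 of the 748 mature miRNAs counted in rat plasma, with earlier results of the same libraries known, so their levels and fold changes are a description and carry no test. Tail-vein plasma was drawn from adult male Sprague-Dawley rats 2 days after injury or surgery, and 1 small RNA library was sequenced per rat. The 4 naive rats received anesthesia and no surgery, the 5 sham-operated controls a craniectomy without an impact, and the 5 rats with mild traumatic brain injury (mTBI) and the 5 with severe traumatic brain injury (sTBI) a craniectomy and a lateral fluid-percussion impact of lower or higher pressure. All groups were given isoflurane. In the operated rats anesthesia was maintained through the surgery, and they also received lidocaine, buprenorphine and saline. The naive rats thus differ from the sham-operated controls by the craniectomy and these treatments, and from the injured rats also by the impact. The sham-operated controls share the surgery with the injured rats. They do not share the further saline given to injured rats on the next day or the soft food given after sTBI.

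A miRNA hairpin is processed by Drosha and Dicer into a duplex of its 5p and 3p arms. One arm is usually loaded into Argonaute and pairs, mainly through its seed at bases 2 to 8, with target mRNAs, while the other is mostly degraded. The Dlk1-Dio3 miRNAs are transcribed from the maternal chromosome as long non-coding RNAs that hold many hairpins, and in the adult they are most abundant in brain. The miR-379 to miR-410 cluster, which contains miR-323, is transcribed in neurons.

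The mature arms and the hairpin are given from RefSeq (build GRCr8), since the 3p and 5p arms are the molecules counted and their seeds differ. Capitals mark the seed in each mature sequence.
rno-miR-323-3p: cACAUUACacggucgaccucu
rno-miR-323-5p: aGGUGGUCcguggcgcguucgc
In the 86-base hairpin, on the plus strand of rat chromosome 6 at chr6:134546944-134547029 of GRCr8, capitals mark the 5p arm and then the 3p arm, with 13 bases between them.
rno-mir-323 hairpin: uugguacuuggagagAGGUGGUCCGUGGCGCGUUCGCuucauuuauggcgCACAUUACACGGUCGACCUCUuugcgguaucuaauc
The 3p arm has 21 bases with 52.4% G or C, and the 5p arm has 22 bases with 72.7% G or C. Only 1.4% of the 635 tested miRNAs with a sequence had a higher G and C content than the 5p arm. No other rat miRNA in the RefSeq table shared either seed.

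Reads of near-identical miRNAs can be counted for each other, so each arm was compared with the other mature sequences that could be matched by name to the count table. None lay within 2 base differences of either arm. The nearest to the 3p arm was rno-miR-154-3p with 6 differences, before rno-miR-3578 and rno-miR-382-3p with 7, and 3 miRNAs with 6 differences were nearest to the 5p arm, each with the seed GGUUGUC. They are shown because all of the nearest sequences come from chromosome 6, as miR-323 does.
rno-miR-154-3p: aAUCAUACacgguugaccuauu
rno-miR-494-5p: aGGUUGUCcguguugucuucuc
rno-miR-410-5p: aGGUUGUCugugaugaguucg
rno-miR-496-5p: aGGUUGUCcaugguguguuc
No rat mature sequence held a run of 16 or more bases of the reverse complement of either arm.

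Counts were of unique molecular indices (UMIs), random tags that let copies of 1 molecule be counted once. The libraries held 16241433 to 21517763 total reads and 2409545 to 5866757 miRNA UMIs. Levels are UMIs per 1000000 miRNA UMIs (CPM), and TMM-scaled CPM also use the library factors of edgeR. Naive libraries 1 and 3 and mTBI libraries 2 and 5 stood apart from the rest, with 12.6 to 16.8 miRNA UMIs per spike-in UMI against 5.53 to 9.37 in the other 15. Values are given with and without them where they matter. Markers of blood cells and liver were counted in every library, and their summed levels overlapped between all groups. The summed CPM of 5 neuronal miRNAs (miR-124-3p, both arms of miR-9a, miR-129-5p and miR-137-3p, none at 0 in any library) was 35.3 to 72.9 in naive plasma, 53.6 to 149 in sham plasma, 102 to 183 in mTBI plasma and 345 to 444 in sTBI plasma. The striated muscle miRNAs summed to 305 to 1249 CPM in naive plasma, 2218 to 9464 in sham plasma, 2403 to 5889 in mTBI plasma and 1587 to 2141 in sTBI plasma. The part of these sources in the levels of miR-323 was not tested, and in plasma more cells that release a miRNA and more of it per cell cannot be told apart.

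miR-323-3p was scarce in naive plasma and higher in each of the other groups, in the order naive, sham, mTBI and sTBI. Its UMI counts were 17, 11, 8 and 7 in naive libraries 1 to 4. They were 19, 31, 29, 29 and 20 in sham libraries 1 to 5, and 60, 28, 44, 39 and 32 in mTBI libraries 1 to 5. In sTBI libraries 1 to 5 they were 130, 173, 138, 125 and 107. No sTBI library had fewer than 107 UMIs, and no other library had more than 60.

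Relative to all miRNA UMIs of a library, miR-323-3p was at 2.88 ± 0.841 CPM (SD, n = 4) in naive plasma, with 3.37, 3.78, 1.96 and 2.42 in libraries 1 to 4. Sham plasma had 8.06 ± 1.54 CPM (SD, n = 5), with 5.72, 8.25, 8.00, 10.05 and 8.30. In mTBI plasma the level was 9.75 ± 3.50 CPM (SD, n = 5), with 13.5, 6.63, 11.6, 11.5 and 5.45, of which the lowest 2 values are from the libraries that stood apart. In sTBI plasma it was 41.7 ± 6.21 CPM (SD, n = 5), with 45.6, 49.1, 38.5, 42.1 and 33.1. The ranges of the groups did not overlap except those of sham and mTBI. How many of all tested miRNAs have such ranges was not counted, so this is a description only. Without the 4 libraries, naive rats had 2.42 to 3.78 CPM (n = 2) and rats with mTBI 11.5 to 13.5 CPM (n = 3), and the mTBI range then lay above that of sham. The low counts limit the precision in naive plasma. Naive library 4 had 7 UMIs, with a 95% exact binomial interval of 0.972 to 4.98 CPM, and sTBI library 2 had an interval of 42.0 to 57.0 CPM. Such intervals cover counting error only.

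**Figure D1:**
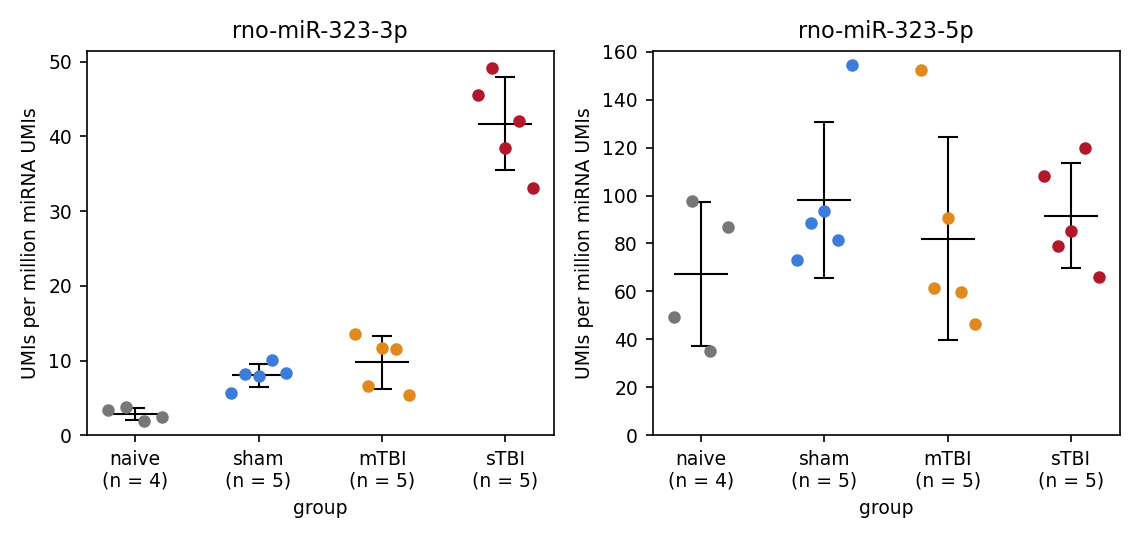
Level of miR-323-3p (left) and miR-323-5p (right) in CPM, 1 point per library in the order of the library numbers, with the group mean (long line) and SD (error bar). The 3p arm was at 33.1 to 49.1 CPM in the 5 sTBI libraries and at no more than 13.5 CPM elsewhere, while the 5p arm overlapped between all groups.

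In the edgeR fit across all 713 tested miRNAs, the log2 fold change of miR-323-3p over naive plasma was 1.18 (SE 0.22) in sham plasma, 1.64 (SE 0.22) in mTBI plasma and 3.48 (SE 0.21) in sTBI plasma. These 3 comparisons share the 4 naive rats. The log2 fold change of sTBI over sham was 2.30 (SE 0.17), and that of sTBI over mTBI was 1.85 (SE 0.17). Between mTBI and sham it was 0.46 (SE 0.18), but 0.27 (SE 0.26) with total miRNA counts and 0.67 without the 4 libraries that stood apart. As background for these fold changes, edgeR called 2.38% of tested miRNAs between sham and naive and 2.38% between mTBI and naive. Called means a Benjamini-Hochberg adjusted p under 0.05. It called 4.91% between sTBI and naive, 2.1% between sTBI and sham, 3.23% between sTBI and mTBI and 0.14% between mTBI and sham. The share of all tested miRNAs whose group ranges do not overlap was not counted. The calls are not a measure of that share. The fold change of miR-323-3p from naive to sTBI ranked 3 from the highest among the 713 tested, and it ranked 6 from the highest over sham and 6 over mTBI. From naive to sham it ranked 23, from naive to mTBI 14, and from sham to mTBI 96.

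The size of the change depended on the scaling. The mean of miR-323-3p in sTBI plasma was 14.5 times that of naive plasma in CPM, 11.5 times in TMM-scaled CPM (36.9 ± 4.69 against 3.22 ± 0.813, SD, n = 5 and 4) and 9.57 times per 1000000 spike-in UMIs (275 against 28.8). Groups whose CPM ranges did not overlap also did not overlap on the other 2 scales. Naive libraries 3 and 4 had fewer than 10 UMIs, whereas 7 libraries held no miRNA count between 0 and 10. With all counts under 10 set to 0, the log2 fold change over naive plasma was 1.82 for sham, 2.28 for mTBI and 4.13 for sTBI.

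miR-323-5p, the arm with the seed GGUGGUC, was the more abundant arm in all 19 libraries and varied without separating the groups. Its UMI counts were 248, 284, 143 and 252 in naive libraries 1 to 4. In sham libraries 1 to 5 they were 243, 332, 339, 235 and 372. They were 677, 259, 342, 202 and 273 in mTBI plasma, and 308, 278, 306, 356 and 213 in sTBI plasma. mTBI library 1 had the highest count, and naive library 3 the lowest.

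The level of miR-323-5p was 67.2 ± 29.9 CPM (SD, n = 4) in naive plasma, 98.2 ± 32.4 (SD, n = 5) in sham plasma, 82.1 ± 42.4 (SD, n = 5) in mTBI plasma and 91.6 ± 21.97 (SD, n = 5) in sTBI plasma. All 4 ranges overlapped, from 34.96 to 97.6 CPM in naive plasma to 73.1 to 154.4 CPM in sham plasma. In naive plasma the 2 lowest values, 49.2 and 34.96 CPM, came from the libraries that stood apart, and the other 2 were at 87.1 and 97.6 CPM. The log2 fold change over naive plasma was 0.33 (SE 0.24) in sham plasma, 0.26 (SE 0.24) in mTBI plasma and 0.17 (SE 0.24) in sTBI plasma. Between sTBI and sham it was -0.17 (SE 0.23), between sTBI and mTBI -0.10 (SE 0.23), and between mTBI and sham -0.07 (SE 0.23). With other settings its direction changed. From naive to sTBI it lay between -0.15 and 0.45 over 10 alternatives.

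With 1 arm higher by group and the other not, the share of the 3p arm among the UMIs of both arms, which needs no library factor, was higher in each group in the same order. The share was 6.42, 3.73, 5.30 and 2.70% in naive libraries 1 to 4, a mean of 4.54 ± 1.65% (SD, n = 4). It was 7.95 ± 2.13% (SD, n = 5) in sham plasma, from 5.10 to 11.0%, and 11.2 ± 3.03% (SD, n = 5) in mTBI plasma, from 8.14 to 16.2%. In sTBI libraries 1 to 5 it was 29.7, 38.4, 31.1, 25.99 and 33.4%, a mean of 31.7 ± 4.595% (SD, n = 5). The sTBI range lay above all others, whereas naive and sham overlapped and so did sham and mTBI. How many other hairpins have such ranges was not counted. The overlap of naive and sham came from naive libraries 1 and 3, which stood apart. Naive libraries 2 and 4, at 3.73 and 2.70%, lay below the lowest sham share of 5.10%. Without the 4 libraries sham and mTBI still overlapped, with 8.14% in mTBI library 1 and 11.0% in sham library 4. The 95% exact binomial interval of the lowest sTBI library was 22.1 to 30.2%, and that of the highest mTBI library 11.8 to 21.5%.

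**Figure D2:**
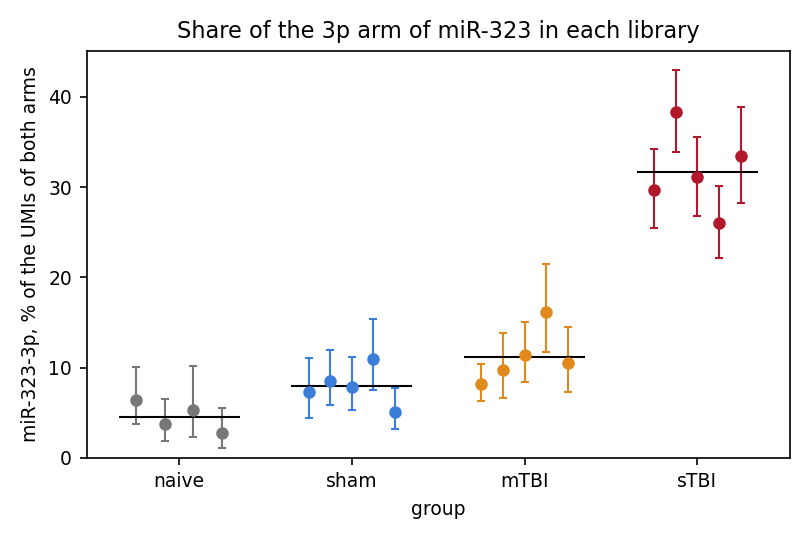
Share of miR-323-3p among the UMIs of both arms, in percent, 1 point per library with its 95% exact binomial interval (error bar), and the group mean (line). The 5 sTBI libraries lay between 25.99 and 38.4%, and the other 14 libraries between 2.70 and 16.2%.

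Expressed as a ratio, the mean of the 5p arm over the 3p arm was 23.6-fold in naive plasma, 12.4-fold in sham plasma, 8.40-fold in mTBI plasma and 2.21-fold in sTBI plasma. The mean log2 ratio of 3p to 5p, with 0.5 UMIs added to each arm, was -4.40 ± 0.56 (SD, n = 4), -3.55 ± 0.43 (SD, n = 5), -3.01 ± 0.42 (SD, n = 5) and -1.11 ± 0.31 (SD, n = 5) in the same order. Adapters ligate to different small RNAs with different efficiency, so the ratio of UMIs is not a ratio of molecules in plasma. Ranked by mean level among the 748 miRNAs, the 3p arm was 647 in naive plasma, 523 in sham plasma, 441 in mTBI plasma and 260 in sTBI plasma. The 5p arm stayed between rank 179 and rank 204.

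For 249 hairpins both arms were tested, and 37 of these lie in the imprinted domain, miR-323 included. The log2 fold change of the 3p arm less that of the 5p arm between sTBI and naive was 3.32 for miR-323, against a median of 0.07 over all hairpins and 0.12 over the imprinted ones. It ranked 2 from the highest of the 249 and 1 of the 37 imprinted. The hairpin ahead of it, miR-214, had 0 UMIs of its 5p arm in all 5 sTBI libraries, so its fitted difference depends on the prior count and is not given. Between sTBI and mTBI the difference was 1.94 and again ranked 1 of 37. Between mTBI and sham it was 0.53 and ranked 8 of 37. In naive plasma the 5p arm had the higher mean in 15 of the 37 imprinted hairpins, and in that group miR-543 alone was more 5p-sided than miR-323.

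**Figure D3:**
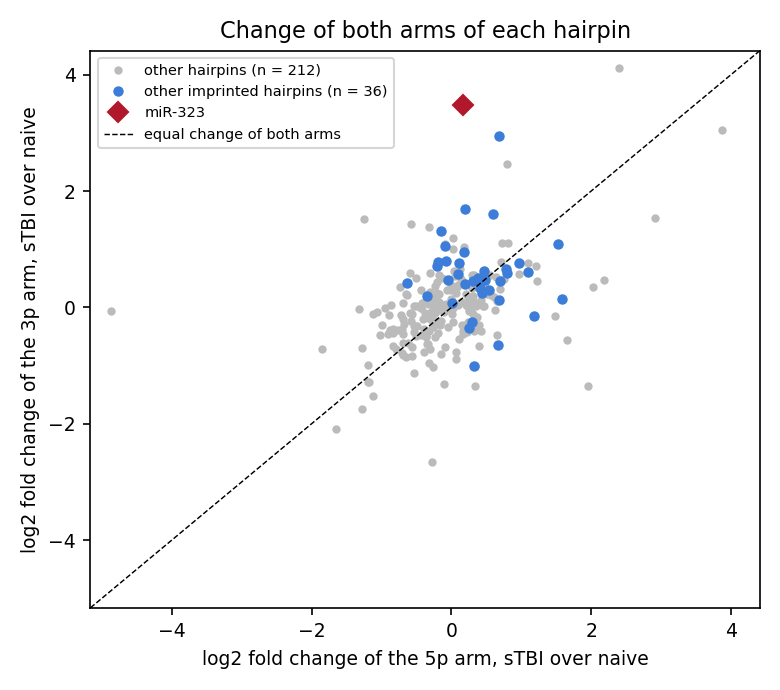
Log2 fold change between sTBI and naive of the 3p arm (vertical axis) against that of the 5p arm (horizontal axis) for 249 hairpins with both arms tested, with the dashed line where both are equal. miR-323 (diamond) lay at 3.48 for 3p and 0.17 for 5p, and the other 36 imprinted hairpins are the darker points.

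The miRNA genes on either side of Mir323 were described by taking up to 4 genes on each side in the order of the RefSeq annotation, which gave Mir299b, Mir299, Mir3579 and Mir380 before it and Mir758, Mir329, Mir494 and Mir1193 after it. Of their arms, 10 were tested. In each of the 6 comparisons edgeR and DESeq2 called 0 of them, and 1 or 2 of the 10 had an unadjusted p under 0.05 in each comparison. Of all 713 tested miRNAs, 51 to 168 per comparison had an unadjusted edgeR p under 0.05. Over all tested miRNAs edgeR called 0.14 to 4.91% per comparison, so a count of 0 of 10 is near the background and is no result about these arms. Between sTBI and naive their log2 fold changes ran from -0.54 for miR-380-3p to 0.70 for miR-299a-5p, with SEs of 0.20 to 0.70.

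In naive plasma the mean levels of these 10 arms ran from 3.18 TMM-scaled CPM for miR-380-3p to 19.8 for miR-329-3p, beside 3.22 for miR-323-3p. miR-758-3p had 5.50 TMM-scaled CPM in naive plasma and 5.86 in sTBI plasma, and miR-758-5p had 5.17 and 5.18. miR-329-3p had 19.8 and 21.5. These values of sTBI and naive plasma were within 0.13 of each other on the log2 scale of the fit. miR-494-3p was at 12.3 in naive plasma and 18.4 in sTBI plasma, with a log2 fold change of 0.57 (SE 0.22) and an edgeR adjusted p of 0.135.

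**Figure D4:**
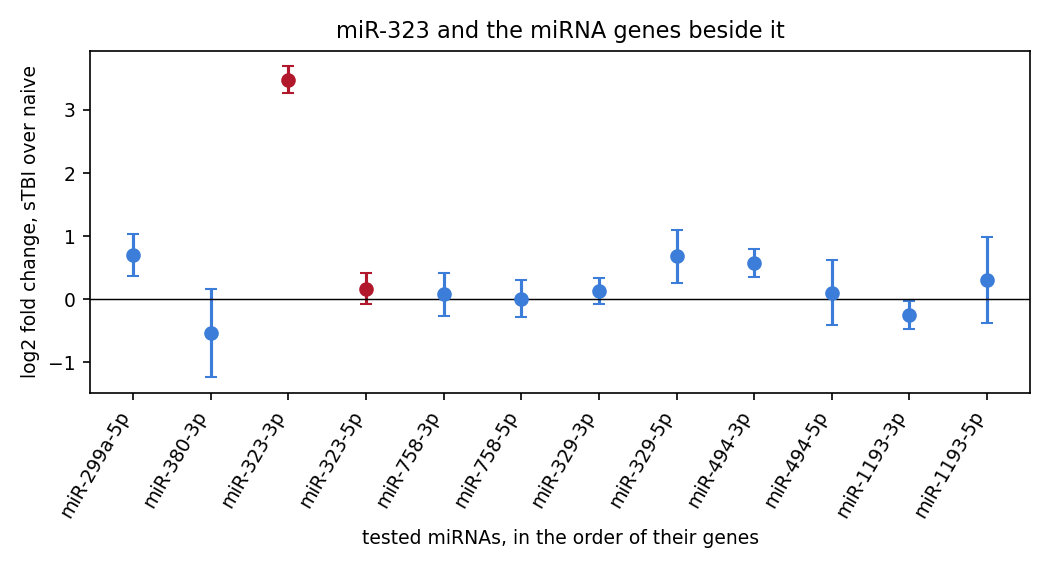
Log2 fold change between sTBI and naive (point) with its SE (bar) for both arms of miR-323 and the 10 tested arms of the miRNA genes beside it, in gene order. miR-323-3p lay at 3.48, and the others between -0.54 and 0.70.

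The other miRNAs of the miR-379 to miR-410 cluster were counted as a list of 66, of which 60 were tested. Between sTBI and naive, edgeR called 11 of the 60 higher and 0 lower, with a median log2 fold change of 0.42, beside 31 higher (4.35%) and 4 lower (0.561%) of all 713 tested and a median of 0.03. The largest changes among them were miR-487b-3p at 1.69 (SE 0.48, edgeR adjusted p = 0.0464), miR-134-5p at 1.59 (SE 0.19, adjusted p = 3.1e-06), miR-382-5p at 1.52 (SE 0.21, adjusted p = 2.6e-05) and miR-668 at 1.32 (SE 0.23, adjusted p = 0.000564). miR-134 limits dendritic spine size in rat hippocampal neurons. miR-134-5p was at 24.7 ± 5.91 TMM-scaled CPM (SD, n = 4) in naive plasma and 74.0 ± 14.3 (SD, n = 5) in sTBI plasma. The call of miR-487b-3p was lost in 11 of 19 alternatives. Among these were read counts (0.105), RLE factors, the size factors of DESeq2 (0.0505), spike-in totals (0.14), a fit of only both groups (0.121) and the fit without the 4 libraries that stood apart (0.144). It was also lost without naive library 1 (0.0909) or 3 (0.101) and without sTBI library 2 (0.143), 3 (0.0888) or 4 (0.0812). The number called was 5 without naive library 1, 5 without naive library 3, 7 without sTBI library 2 and 7 without sTBI library 4. It was 4 with spike-in totals and 3 without the 4 libraries that stood apart.

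Compared with mTBI, the plasma of rats with sTBI had 7 of the 60 higher and 0 lower (median 0.32), beside 21 higher (2.95%) and 2 lower (0.281%) of all tested (median 0.04). They were led by miR-382-5p at 1.12 (SE 0.19, edgeR adjusted p = 0.000536), miR-409b at 1.12 (SE 0.17, adjusted p = 0.000155), miR-668 at 1.09 (SE 0.21, adjusted p = 0.00254) and miR-154-5p at 0.88 (SE 0.18, adjusted p = 0.00562). The number was 4 without mTBI library 2 and 4 without sTBI library 2. Without the 4 libraries that stood apart it was 3, and the call of miR-154-5p was then lost (adjusted p = 0.0771), as it was with spike-in totals (0.186).

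Between sTBI and sham, 3 of the 60 were higher and 0 lower (median 0.13), beside 1.82% higher and 0.281% lower of all tested (median -0.01). They were miR-300-3p, miR-668 and miR-382-5p, at 0.94 (SE 0.23), 0.86 (SE 0.21) and 0.75 (SE 0.19). Their edgeR adjusted p values were 0.0338, 0.0293 and 0.0352, and each call was lost under some scalings or fits and without some single libraries. miR-300-3p was not called with read counts (0.0505), with spike-in totals (0.418) or when only both groups were fitted (0.0954). miR-668 was not called with read counts (0.0664) or total counts (0.249), nor miR-382-5p with total counts (0.125) or spike-in totals (0.21). miR-300-3p lost its call without sham library 3 (0.124), 4 (0.07) or 5 (0.091) and without sTBI library 2 (0.103), 3 (0.0598) or 4 (0.13). For miR-668 this held without sham library 1 (0.0773), 2 (0.0853) or 3 (0.13) and without sTBI library 1 (0.0652), 4 (0.0518) or 5 (0.08). For miR-382-5p it held without sham library 2 (0.0853), 3 (0.157) or 4 (0.0765) and without sTBI library 2 (0.0698), 4 (0.0584) or 5 (0.166). The count was 1 without sham library 2 or 4 or without sTBI library 2 or 5, and 0 without sham library 3 or without sTBI library 4.

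Between sham and naive, 2 of the 60 were higher and 1 lower (median 0.27), beside 2.1% higher and 0.281% lower of all tested (median 0.04). miR-134-5p had a log2 fold change of 1.10 (SE 0.19, edgeR adjusted p = 0.00156) and miR-382-5p 0.77 (SE 0.20, adjusted p = 0.0466), and miR-379-3p fell by 1.08 (SE 0.27, adjusted p = 0.0351). miR-134-5p was no longer called without the 4 libraries that stood apart (0.0893). miR-382-5p was no longer called with read counts (0.107), RLE factors (0.0668), spike-in totals (0.102), a fit of only both groups (0.206) or without the 4 libraries (0.767). This also held without naive library 1 (0.24) or 3 (0.225) or without sham library 1 (0.124), 2 (0.0595), 3 (0.106) or 5 (0.0808). miR-379-3p was no longer called with total counts (0.0834), spike-in totals (0.102), a fit of only both groups (0.172) or without the 4 libraries (0.744), nor without naive library 3 (0.3) or without sham library 2 (0.0619), 3 (0.101), 4 (0.0771) or 5 (0.0702). The count was 1 without naive library 3, 1 without sham library 2 and 0 without the 4 libraries that stood apart. Between mTBI and naive, 1 was higher, miR-134-5p at 0.90 (SE 0.19, edgeR adjusted p = 0.00619), and 0 were lower (median 0.01, beside 2.38% higher and 0% lower and a median of -0.06 over all tested), a call lost without the 4 libraries (edgeR adjusted p = 0.26), when only both groups were fitted (0.0715) and under total counts (0.0669). Between mTBI and sham edgeR called 0 of the 60, with 7 at an unadjusted p under 0.05 and 1 lower by DESeq2 (median -0.22, beside 0.14% higher and 0% lower and a median of 0.02 over all tested). Of all 713 tested, 81 had an unadjusted edgeR p under 0.05 in that comparison, so 7 of 60 is near the background.

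The 26 tested miRNAs of the same domain before miR-379 included 7 called higher between sTBI and naive (median 0.47), 4 between sTBI and mTBI (median 0.32), and 2 higher and 1 lower between sTBI and sham (median 0.13). Over all 713 tested, 4.35% were called higher between sTBI and naive (median 0.03), 2.95% between sTBI and mTBI (median 0.04), and 1.82% higher and 0.281% lower between sTBI and sham (median -0.01). Of sTBI over naive, the count was 4 without naive library 1, and of sTBI over mTBI it was 2 without mTBI library 2, 3 or 5 or without sTBI library 1 or 2. The 1 lower was miR-673-5p (edgeR adjusted p = 0.0498), a call lost in 14 of 20 alternatives. The call of miR-341 between sTBI and mTBI was lost in 13 of 20, and that of miR-136-3p between mTBI and naive in 10 of 19. Those of miR-434-3p and miR-3543 between sTBI and each other group were lost in 0. The list had 3 higher between sham and naive (median 0.39) and 3 higher between mTBI and naive (median 0.16), and without the 4 libraries these were 0 and 1. Of all tested, 2.1% were higher between sham and naive (median 0.04) and 2.38% between mTBI and naive (median -0.06). Both miR-434-3p and miR-3543 were among the list miRNAs called higher in each comparison with calls. Between sTBI and sham they were the only 2 called higher. Their sequences are reverse complements over a long run, as given below, and their reads cannot be told apart here. The counts of this list may thus include the same reads under both names. Between mTBI and sham edgeR called 0 of the 26, with 3 at an unadjusted p under 0.05 and 0 by DESeq2 (median -0.18, beside 0.14% higher and a median of 0.02 over all tested). With 81 of all 713 tested at an unadjusted edgeR p under 0.05 there, 3 of 26 is near the background. Set beside the 86 other tested miRNAs of both lists, miR-323-3p had the highest log2 fold change between sTBI and naive, sTBI and sham, sTBI and mTBI, and mTBI and naive. The next was miR-434-3p in each of these, at 2.94, 1.67, 1.47 and 1.47. Between sham and naive 5 of the 86 had a higher fold change than miR-323-3p, and between mTBI and sham also 5.

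The miRNAs whose levels over the 19 libraries were most like those of miR-323-3p were found by Pearson's r of log2 TMM-scaled CPM. They were miR-434-3p (r = 0.94), miR-9a-5p (0.93), miR-3543 (0.92), miR-9a-3p (0.92), miR-129-5p (0.92), miR-384-5p (0.83), miR-136-3p (0.83) and miR-668 (0.82). Over the 712 other tested miRNAs the median r was 0.05 and the 95th percentile 0.60. The libraries share group, depth and scaling, so these values are descriptions. Spearman's rho ran from 0.72 for miR-668 to 0.92 for miR-9a-3p. After the group means were removed, r for these 8 lay between -0.39 and 0.45, so the likeness lay mostly between the group means.

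Both arms of miR-9a, which acts in neural progenitors and neurons, and miR-129-5p, abundant in brain, come from other chromosomes. miR-9a-5p was at 19.3 ± 4.34 TMM-scaled CPM (SD, n = 4) in naive plasma, 26.6 ± 6.11 (SD, n = 5) in sham plasma, 38.1 ± 7.54 (SD, n = 5) in mTBI plasma and 102 ± 17.0 (SD, n = 5) in sTBI plasma. miR-434-3p, which in mouse is antisense to the imprinted gene Rtl1, was at 35.6 ± 8.22 (SD, n = 4), 86.0 ± 17.6 (SD, n = 5), 98.7 ± 13.5 (SD, n = 5) and 274 ± 33.4 (SD, n = 5) in the same order. As for miR-323-3p, its sham and mTBI ranges overlapped and its naive and sTBI ranges lay apart from the rest, again without a count over all tested miRNAs. The mature miR-3543 sequence holds a run of 22 bases of the reverse complement of miR-434-3p, from the opposite strand, and its level was 3.75 ± 1.47 (SD, n = 4) in naive plasma and 24.9 ± 5.06 (SD, n = 5) in sTBI plasma. Whether strand was used in counting is not given in the sources used here, so the reads of these 2 cannot be told apart here.
rno-miR-434-3p: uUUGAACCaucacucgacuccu
rno-miR-3543: cAGGAGUCgagugaugguucaaa
rno-miR-9a-5p: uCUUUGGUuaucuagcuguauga
rno-miR-129-5p: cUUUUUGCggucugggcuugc
These are printed, with the seed in capitals, because no pair of the 4 shares a seed with each other or with miR-323-3p.

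**Figure D5:**
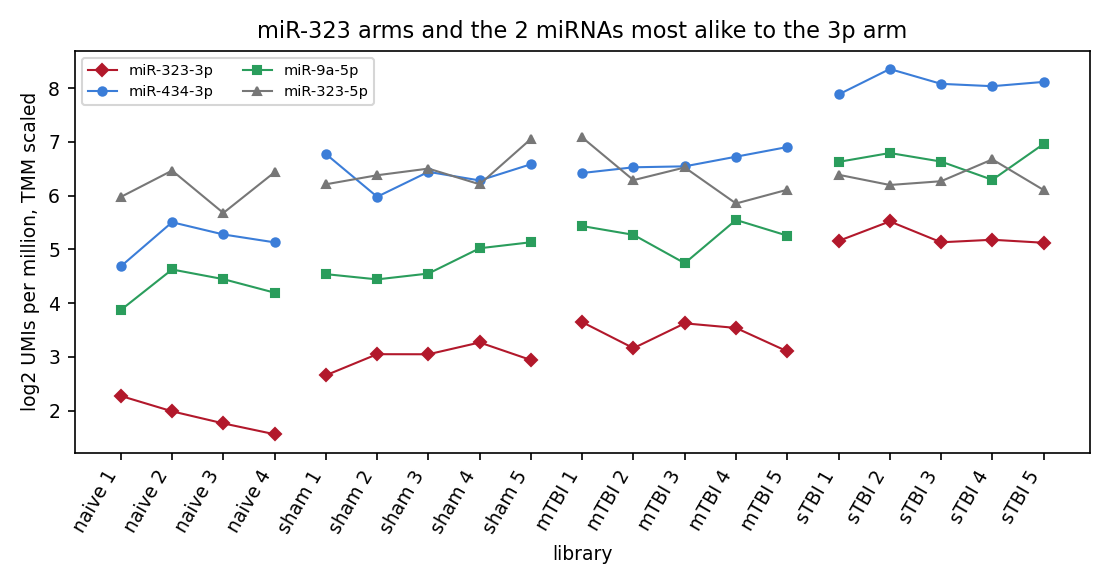
Log2 TMM-scaled CPM of both arms of miR-323 and of the 2 miRNAs most like the 3p arm, 1 point per library, with lines joining libraries of a group for reading only. miR-323-3p, miR-434-3p and miR-9a-5p were highest in the 5 sTBI libraries, and miR-323-5p was not.

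Pearson's r between both arms of miR-323 was 0.12 over the 19 libraries and 0.09 after the group means were removed. The miRNAs most like miR-323-5p were miR-211-3p (r = 0.89), miR-181d-3p (0.85), miR-1298 (0.83) and miR-296-3p (0.82), and r was 0.84 to 0.88 for these 4 after the group means were removed, so this likeness was also found among rats of a group. miR-211 lies in an intron of the melanocyte gene Trpm1, and miR-296 in the imprinted Gnas locus, both known from human or mouse. miR-211-3p was at 22.9 ± 6.20 TMM-scaled CPM (SD, n = 4) in naive plasma and 26.9 ± 9.01 (SD, n = 5) in sTBI plasma, with ranges that overlapped. Of the 20 miRNAs most like the 5p arm, the 18 with a sequence had a median of 62.8% G or C, against 50.0% for the 19 with a sequence among the 20 most like the 3p arm and 47.8% over the 635 tested with a sequence. The median G and C content was thus higher among the miRNAs most like the 5p arm, but the 18 ran from 33.3 to 83.3%. The part of base composition in this likeness was not tested.
rno-miR-211-3p: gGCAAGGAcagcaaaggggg
rno-miR-296-3p: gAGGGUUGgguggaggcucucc
They are shown, with the seed in capitals, for their runs of G, and hold 65.0 and 68.2% G or C.

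The pooled SD within groups, on the log2 scale of TMM-scaled CPM, was 0.24 for miR-323-3p, rank 62 from the lowest of 713, and 0.36 for miR-323-5p, rank 312, beside a median of 0.38. This scale adds a prior count of 2, which narrows the spread of scarce miRNAs. The rank of miR-323-3p is thus not a plain measure of a small spread. In naive plasma its TMM-scaled CPM were 3.22 ± 0.813 (SD, n = 4). Reads per UMI were 1.18 to 2.85 for the 3p arm and 1.20 to 2.33 for the 5p arm, and their group means were 1.66 to 1.86 and 1.53 to 1.87.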

How the data were processed

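Plasma RNA (miRNeasy serum/plasma kit) was made into QIASeq miRNA libraries and sequenced with 1 sample per lane. The authors quantified reads with the GeneGlobe portal, per the paper's methods and the submitters' processing notes: adapters were trimmed with cutadapt, reads with short inserts or short UMIs were dropped, and the rest was aligned with Bowtie (rat build Rnor_6.0) first without mismatch to mature miRNAs of miRBase and later with mismatches. The deposited tables hold raw read counts and UMI counts per feature, without normalization, and UMI counts were used. Groups follow the labels, and every library is in each result unless stated. Sequences and gene order came from RefSeq (GRCr8).

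All 19 libraries entered 1 edgeR 4.0.16 quasi-likelihood fit (R 4.3.3) with TMM factors, filterByExpr by group (minimum count 10, 713 of 748 miRNAs kept) and Benjamini-Hochberg adjustment over the 713 in each of 6 comparisons, at a threshold of 0.05. SEs are the log2 fold change over the square root of F. Likeness used log2 CPM with a prior count of 2. Each library is 1 rat. Alternatives were read counts, RLE factors, total counts, spike-in totals, no filter, counts under 10 set to 0, DESeq2 1.42.0, fits of 2 groups, the 4 libraries that stood apart left out, a replicate block and each library left out. Counts simulated with 200 changed miRNAs were used to check the fit. Per comparison it called 69.8 to 78.4% of the 2-fold and 93.8 to 96.9% of the 4-fold changes. Of the calls, 0.625 to 6.82% were false, with the highest share between sTBI and sham. The members, lists and tests were chosen with earlier results of these data known, and both lists rest on general knowledge of the domain. Besides both arms, miRNAs were named as neighbours of Mir323, as the 8 most like the 3p and the 4 most like the 5p arm, as up to 4 called cluster miRNAs with the largest change per comparison, or as the 3 nearest sequences, beside 3 miRNAs that the study followed up (miR-136-3p, miR-434-3p and miR-9a-3p). Figures were drawn with matplotlib 3.10.9.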

Additional observations from a re-analysis of the deposited data

Results flagged for a closer look

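In 20 checks of a group of 4 or 5 libraries for a value far from the others, 3 stood out. Chance alone flags about 1 in 20 independent groups. The checks used the same counts on 2 scales and in the ratio of the arms, so they are not independent and the 3 cannot be set against that rate. miR-323-3p in sTBI library 2 was at 45.3 TMM-scaled CPM, with the next at 35.6 and the lowest at 34.2. miR-323-5p in sham library 5 was at 154.4 CPM, with the next at 93.5 and the lowest at 73.1. On the TMM-scaled values the same library was at 132.2, with the next at 90.0 and the lowest at 73.4.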

How the results depend on the processing

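The log2 fold change of miR-323-3p kept its direction in each of the 6 comparisons under the 10 alternatives and with each library left out. Total counts, which move the median of all miRNAs by up to 0.33 on the log2 scale between sTBI and naive, gave miR-323-3p 1.47 for sham over naive, 3.84 for sTBI over naive and 2.10 for sTBI over mTBI. Spike-in totals, which move that median by -0.22 between sTBI and naive and by -0.30 between sTBI and mTBI, gave 1.55 for sTBI over mTBI. With counts under 10 set to 0, where naive libraries 3 and 4 become 0, miR-323-3p was at 1.82 for sham, 2.28 for mTBI and 4.13 for sTBI over naive. Without the 4 libraries that stood apart it was at 1.97 for mTBI over naive. Each library left out in turn gave 1.05 to 1.33 for sham and naive, 1.52 to 1.80 for mTBI and naive, 3.35 to 3.64 for sTBI and naive, 0.38 to 0.53 for mTBI and sham, 2.22 to 2.40 for sTBI and sham, 1.77 to 1.95 for sTBI and mTBI. For miR-323-5p the same gave 0.16 to 0.42 for sham and naive, -0.0045 to 0.38 for mTBI and naive, -0.01 to 0.25 for sTBI and naive, -0.32 to 0.11 for mTBI and sham, -0.25 to 0.01 for sTBI and sham, -0.21 to 0.16 for sTBI and mTBI. The mean log2 ratio of the arms lay between -4.59 and -4.18 in naive rats, -3.69 and -3.39 in sham-operated controls, -3.17 and -2.89 after mTBI and -1.22 and -1.01 after sTBI.

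Counts of called miRNAs moved more. In the miR-379 to miR-410 list, sham and naive (3 called) gave 1 with spike-in totals, 5 with counts under 10 set to 0, 7 with DESeq2, 1 in the fit of 2 groups and 0 without the 4 libraries. mTBI and naive (1) gave 0 with total counts, in the fit of 2 groups and without the 4 libraries. sTBI and naive (11) gave 4 with spike-in totals and 3 without the 4 libraries, sTBI and mTBI (7) 3 and 3, and mTBI and sham (0) 1 with DESeq2 and 1 in the fit of 2 groups. sTBI and sham (3) gave 1 under either total counts or spike-in totals and 5 by DESeq2. Of the miRNAs before miR-379, the counts without the 4 libraries were 0 for sham and naive, 1 for mTBI and naive, 3 for sTBI and naive and 2 for sTBI and mTBI, and spike-in totals gave 4 and 2 for the last pair of these. Over all tested miRNAs, sham and naive (17) gave 11 with spike-in totals, 47 with DESeq2, 9 in the fit of 2 groups and 0 without the 4 libraries. mTBI and naive (17) gave 10 with total counts, 11 in the fit of 2 groups and 3 without the 4 libraries. sTBI and naive (35) gave 21 with read counts, 15 with spike-in totals, 68 with DESeq2 and 11 without the 4 libraries. mTBI and sham (1) gave 5 with DESeq2 and 2 in the fit of 2 groups, sTBI and sham (15) 8 with total counts and 23 with DESeq2, and sTBI and mTBI (23) 14 with spike-in totals and 10 without the 4 libraries. The cause of these shifts was not tested, except that leaving out libraries leaves 2 naive rats and 3 rats with mTBI.

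With each library left out, the miR-379 to miR-410 count was 1 to 4 for sham and naive, 1 in each case for mTBI and naive, 5 to 10 for sTBI and naive, 0 in each case for mTBI and sham, 0 to 3 for sTBI and sham, 4 to 7 for sTBI and mTBI. For the miRNAs before miR-379 it was 2 to 3 for sham and naive, 2 to 3 for mTBI and naive, 4 to 7 for sTBI and naive, 0 to 1 for mTBI and sham, 2 to 3 for sTBI and sham, 2 to 4 for sTBI and mTBI, and over all tested miRNAs 10 to 41 for sham and naive, 12 to 15 for mTBI and naive, 15 to 64 for sTBI and naive, 1 to 2 for mTBI and sham, 9 to 15 for sTBI and sham, 16 to 23 for sTBI and mTBI. The labels do not say whether the replicate numbers pair the rats, and this was not tested. Over 27 pairs of libraries with the same number, deviations from the group means had a median r of 0.06 (-0.44 to 0.35). It was -0.02 over 108 pairs with other numbers, and 4 libraries correlated best with their own number. These correlations are a description and cannot settle the pairing. With the replicate number as a block, sham and naive gave 1 of the miR-379 to miR-410 list and 11 of all tested, sTBI and naive gave 22 of all tested, and no other count moved by over 1.5 times. Under the block the adjusted p was 0.0759 for miR-487b-3p between sTBI and naive, 0.0763 for miR-382-5p between sTBI and sham, and 0.116 for miR-382-5p and 0.0702 for miR-379-3p between sham and naive. The low counts of miR-323-3p limit the precision most in the naive rats, with 7 to 17 UMIs.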
